A study of Mus musculus with 6 samples.

Results

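The genes described here encode feedback brakes on mitogen-activated protein kinase (MAPK) signalling, namely the dual-specificity phosphatases Dusp1, Dusp2, Dusp4, Dusp5, Dusp6 and Dusp10 and the Sprouty-family genes Spry1, Spry2, Spred1 and Spred2. They were chosen by name, as the rows of the deposited count table that carry these symbols, and make up 10 of its 49315 genes. All 10 passed the filter on low counts, which left 15142 genes for testing.

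MAPK cascades (the ERK, JNK and p38 branches) carry signals from the T cell receptor and from cytokine receptors to transcription factors such as AP-1 and EGR. Dual-specificity phosphatases switch these kinases off by removing phosphate from both the threonine and the tyrosine of the activation loop, and many of their genes are themselves switched on by the same kinases. Sprouty and Spred proteins act further upstream, on the activation of RAS and RAF. In T cells several of these genes are induced soon after antigen recognition, and their transcripts are short-lived.

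The cells were total CD8+ T cells sorted from draining nodes of wild-type female C57Bl6/J mice that carried B16F10 tumors, a transplanted mouse melanoma. All mice received HCW9218 once, under the skin, at a tumor size of 50 to 100 mm3, and nodes were taken on day 5. By the series title HCW9218 is a complex of TGF-βRII and IL-15. The monotherapy group (n = 3 mice) received nothing further and the combination group (n = 3 mice) also received anti-PD1 into the peritoneum, so each comparison below gives what differed with the added antibody. No untreated group was analysed here.

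Library totals ran from 34568074 to 40101346 counts. All 7 T cell markers examined, Cd3e, Cd8a and Cd8b1 among them, had counts, with a summed level of 5767 to 6945 CPM (counts scaled to the size of the library, by edgeR's trimmed-mean method, TMM) in monotherapy and 5372 to 6965 CPM in the combination. Markers of other cells had counts as well, with no marker at 0 over all libraries. The summed B cell markers lay at 39.5 to 57.1 CPM and 46.1 to 77.8 CPM, and the myeloid markers at 9.07 to 20.6 CPM and 12.3 to 14.3 CPM. Of the 6 B cell markers 1 rose, Cd22, with 8.33 and 22.5 CPM on average (edgeR adjusted p = 0.0244), and 5 were not called. The summed natural killer markers lay at 9.60 to 11.9 CPM in monotherapy and 19.0 to 33.3 CPM in the combination, without overlap. Most of that sum was Klre1 (4.16 and 13.1 CPM on average) and Gzma (3.69 and 10.5 CPM), which effector CD8 T cells also express. Both rose (edgeR adjusted p = 0.0161 and 0.0173). Klri2 lay at 0.488 and 1.16 CPM, higher without overlap (edgeR adjusted p = 0.408). Klrb1c lay at 1.99 and 2.89 CPM, with overlap (edgeR adjusted p = 0.773). Ncr1, more restricted to natural killer cells, lay at 0.226 and 0.201 CPM. The erythroid markers summed to 2.10 to 7.49 CPM in monotherapy and 1.03 to 1.85 CPM in the combination, lower without overlap, with Hbb-bs at an edgeR adjusted p of 0.195. The stromal markers summed to 136 to 171 CPM and 120 to 139 CPM, most of it Pecam1 (142 and 123 CPM on average), with Cdh5 at 0.339 and 0.158 CPM. The dendritic markers summed to 6.66 to 10.9 CPM and 10.3 to 13.2 CPM, of which Itgax made 3.44 and 6.58 CPM on average. The CD4 T cell markers summed to 17.4 to 23.8 CPM and 12.6 to 27.2 CPM. Most of that was Ctla4 (14.3 and 14.6 CPM on average), with Cd4 at 2.58 and 1.26 CPM. The part of these other cells in the results below was not tested, apart from fits with a B cell or a Dct and Tyrp1 covariate. The B cell sum includes Cd22, so that covariate is not free of the group difference. The 6 melanocyte markers summed to 21.9 to 28.6 CPM and 30.3 to 53.8 CPM, of which Pmel alone made 24.0 and 27.3 CPM on average, and Dct, Tyrp1, Tyr and Mlana were at 0 in combination replicate 1. The pigment enzymes Dct and Tyrp1 summed to 0, 582 and 743 counts in combination replicates 1, 2 and 3. Monotherapy had 0 or 1. With that sum as a covariate the group difference rests mainly on combination replicate 1 against monotherapy. The fit therefore cannot separate this signal from a difference between that library and the other combination libraries. In these bulk samples, fewer cells of a type and less RNA per cell cannot be told apart.

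Levels of the genes were compared per length, as RPKM, the reads of a gene scaled to its exon length and to the size of the library. Dusp2, a nuclear phosphatase first described in activated T cells, had the highest level, at 125 ± 10.4 RPKM (SD, n = 3) in monotherapy. Dusp1, which acts on the p38, JNK and ERK kinases, followed at 75.3 ± 10.8 RPKM, and Dusp6, a cytoplasmic phosphatase selective for ERK, at 32.9 RPKM (31.3 to 34.3 over the libraries). Dusp10, which prefers JNK and p38, lay at 18.5 ± 1.36 RPKM, and the nuclear ERK phosphatase Dusp5 at 13.6 ± 0.826 RPKM. Across both groups Dusp2 stood at percentile 97.5 of the tested genes by RPKM, Dusp1 at 94.1 and Dusp6 at 86.7.

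Spred2 was the highest of the Sprouty-family genes, at 9.02 ± 1.14 RPKM (SD, n = 3) in monotherapy, with Spred1 at 2.33 ± 0.286 RPKM. Dusp4, a nuclear phosphatase of ERK and JNK, lay beside Spred1 at 2.01 ± 0.548 RPKM. Spry2 and Spry1 were lowest, at 0.971 ± 0.0689 and 0.833 ± 0.0841 RPKM. In this order the monotherapy libraries of neighbouring genes did not overlap, except for Spred1 with Dusp4 and for Spry2 with Spry1, whose ranges overlapped.

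**Figure D1:**
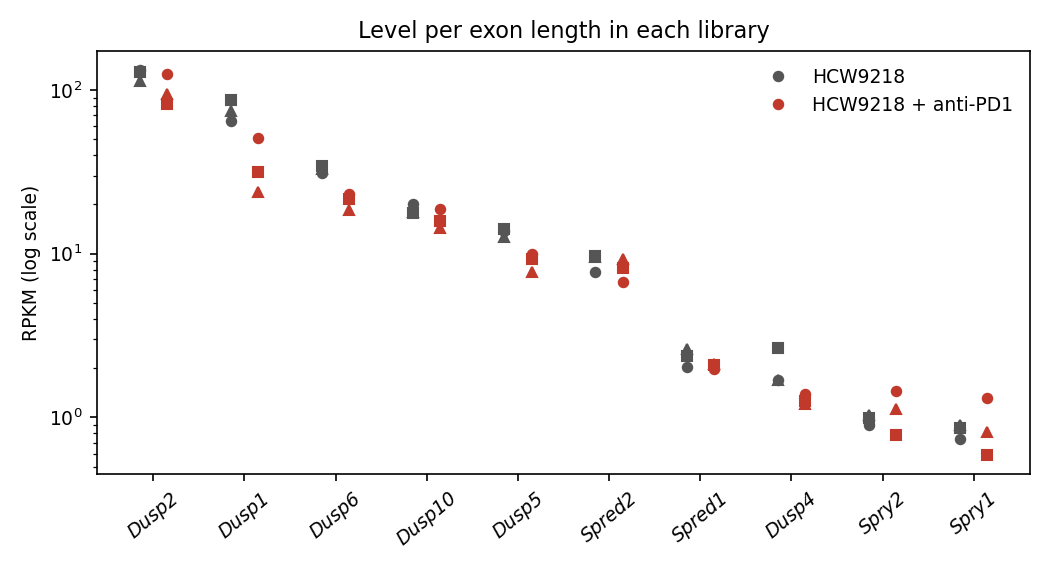
RPKM on a log scale (vertical) of the 10 genes (horizontal, ordered by their monotherapy mean) in the 3 monotherapy libraries (grey) and the 3 combination libraries (red), with circles, squares and triangles for replicates 1, 2 and 3. Dusp2 and Dusp1 lead at 125 and 75.3 RPKM in monotherapy, and Spry2 and Spry1 close the order near 1 RPKM.

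With anti-PD1, the transcripts of Dusp1, Dusp4, Dusp5 and Dusp6 lay lower in every combination library than in any monotherapy library, while those of Dusp2, Dusp10 and the 4 Sprouty-family genes overlapped between groups. Of the 10 genes, 0 passed an adjusted p of 0.05 in edgeR's quasi-likelihood test, in which 1.08% of the 15142 tested genes passed in either direction, 0.132% as lower and 0.951% as higher. The 4 genes without overlap compare with 7.54% of all tested genes whose combination libraries all lay below monotherapy. The same 4 genes had an unadjusted p under 0.05, against 3.39% of tested genes that did so in the lower direction. The log2 difference between groups, combination minus monotherapy, was below 0 for 8 of 10 genes, against 50.1% of all tested genes, with a median of -0.25 against -0.0006 over all. Together the 10 genes took 0.0660%, 0.0766% and 0.0700% of counts in monotherapy replicates 1, 2 and 3 and 0.0532%, 0.0426% and 0.0484% in the combination replicates, most of them from Dusp2 and Dusp1. An exact permutation test of 3 libraries against 3 cannot give a two-sided p below 0.1.

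DESeq2, run on the same counts, called 3 of the 10 lower, namely Dusp1, Dusp5 and Dusp6, where it called 0.482% of all tested genes lower. limma-voom called 0 of the 10, with 0.0925% of tested genes lower. In edgeR the same 3 genes were called lower without the count filter, where 0.347% of genes were, and with the replicate number as a block, where 0.376% were. Dusp1 alone was called with library totals in place of TMM scaling (0.106% of genes lower), and Dusp1 and Dusp6 without combination replicate 1 (0.177%).

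**Figure D2:**
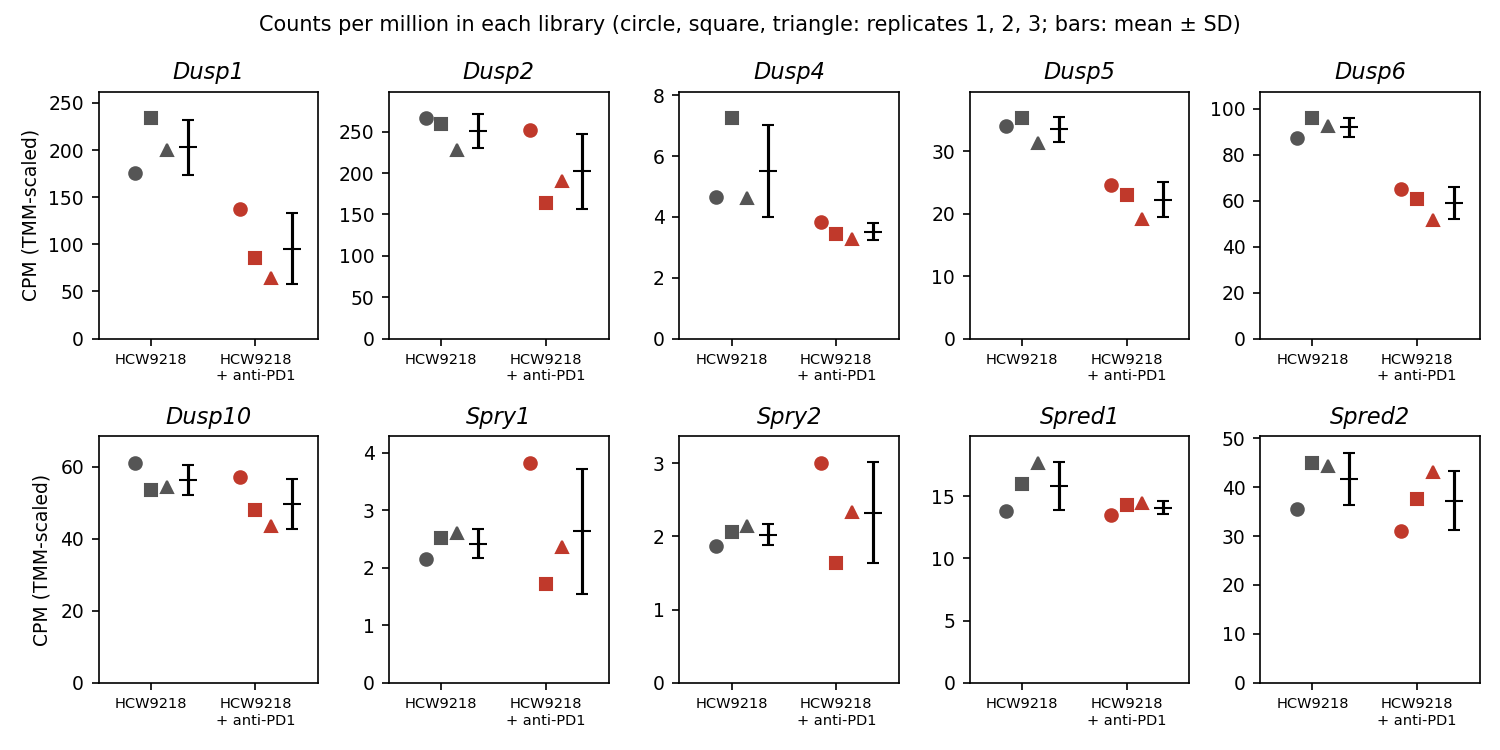
CPM (vertical, from 0) of each gene in the 3 monotherapy libraries (grey) and the 3 combination libraries (red), with circles, squares and triangles for replicates 1, 2 and 3 and black bars for the mean ± SD. Red points lie wholly below grey points for Dusp1, Dusp4, Dusp5 and Dusp6, and Dusp1 is the most spread of these in the combination, from 64.1 to 137 CPM.

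Dusp1, a textbook immediate-early gene, had 176, 234 and 200 CPM in monotherapy replicates 1, 2 and 3 and 137, 85.0 and 64.1 CPM in combination replicates 1, 2 and 3. Every combination library was below every monotherapy library, and combination replicate 1 stood nearest to monotherapy. The means were 203 ± 29.1 and 95.4 ± 37.6 CPM (SD, n = 3 each), a log2 difference of -1.09 ± 0.25 (SE; 95% interval -1.66 to -0.52; edgeR adjusted p = 0.111), the largest of the 10 in size. The order of Dusp1 in combination replicates 1, 2 and 3 ran against their Dct and Tyrp1 counts of 0, 582 and 743. It ran with their share of counts in ribosomal protein genes, which was 19.1%, 13.4% and 8.43%, against 12.2% to 14.3% in monotherapy. Dusp4, Dusp5, Dusp6 and Dusp10 had the same order over these libraries, and Dusp2, Spry1 and Spry2 did not. Spred1 and Spred2 had the opposite order. With the summed Dct and Tyrp1 level as a covariate the log2 difference of Dusp1 was -0.55, which rests mainly on combination replicate 1 against monotherapy. The part of the ribosomal protein share in the result was not tested. Without combination replicate 1 the difference was -1.43 and passed (edgeR adjusted p = 0.00645), and without combination replicate 3 it was -0.87 (adjusted p = 0.0537).

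Dusp6 had 87.5, 95.9 and 92.4 CPM in monotherapy replicates 1, 2 and 3 and 65.1, 60.7 and 51.5 CPM in the combination replicates. The groups were separate, and the gap between them was wider than the spread within either. Its log2 difference was -0.64 ± 0.13 (SE; 95% interval -0.93 to -0.34), with the smallest p of the 10 (edgeR adjusted p = 0.0647; 0.00253 in DESeq2). ERK activity is known to raise Dusp6 transcription, and Dusp6 is widely read as a marker of that activity. Without combination replicate 1 it passed in edgeR (log2 difference -0.69, adjusted p = 0.0382), and on leaving out any other library it did not (adjusted p = 0.0521 to 0.374). With the Dct and Tyrp1 covariate the difference was -0.49 (edgeR adjusted p = 0.154).

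Dusp5, another transcript known to rise with ERK activity, had 34.0, 35.3 and 31.3 CPM in monotherapy replicates 1, 2 and 3 and 24.6, 22.9 and 19.1 CPM in the combination replicates. As for Dusp6, combination replicate 3 was lowest and no libraries overlapped. The log2 difference was -0.59 ± 0.14 (SE; 95% interval -0.91 to -0.28; edgeR adjusted p = 0.113; 0.0171 in DESeq2), and -0.44 with the Dct and Tyrp1 covariate (edgeR adjusted p = 0.208).

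Dusp4 had 4.65, 7.24 and 4.63 CPM in monotherapy replicates 1, 2 and 3 and 3.83, 3.43 and 3.29 CPM in the combination replicates. Monotherapy replicate 2 stood far above the other two, which lay close above combination replicate 1. The log2 difference of -0.65 ± 0.24 (SE; edgeR adjusted p = 0.433) was -0.40 without that library. Dusp4 rests on 126 to 285 counts per library, the fewest among the phosphatases.

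In the deposited files, whose coordinates lie on GRCm38 by comparison with GENCODE M21, the protein-coding gene Dusp1 spans chr17:26505590-26508519, Dusp4 chr8:34807297-34819894, Dusp5 chr19:53529109-53542431 and Dusp6 chr10:99263231-99267488. The genome around the start of Dusp1, Dusp5 and Dusp6 is shown because these 3 had the smallest p of the 10 genes. The sequences are from RefSeq (GRCm38.p6), run from 250 bases before to 50 bases after RefSeq's start, and are written on the gene's strand. RefSeq's start lies 47 bases downstream of the deposited 5′ end for Dusp1 and 36 bases for Dusp5, and equals it for Dusp6; motif positions are counted from RefSeq's start. Capitals mark matches, on either strand, to the CRE motif TGACGTCA (bound by CREB-type factors), to its core TGACG, which the full motif contains, and to the CArG box, which serum response factor binds. The AP-1 motif TGANTCA was also searched. The ETS motif was searched as CCGGAAG, and the NF-kB motif by its known consensus. For EGR factors GCGTGGGCG was used. The TATA box was searched as TATAAA. Windows matched 9 of the 10 genes by symbol, and Dusp4 had none. For Dusp10 RefSeq's start lies 21079 bases downstream of the deposited 5′ end, and for Spred1 at -303 bases, which is upstream. The windows of these genes are therefore not at the deposited start. The Dusp1 window lies at chr17:26508423-26508722 on the minus strand, that of Dusp5 at chr19:53528895-53529194 and that of Dusp6 at chr10:99262981-99263280, both on the plus strand.
Dusp1: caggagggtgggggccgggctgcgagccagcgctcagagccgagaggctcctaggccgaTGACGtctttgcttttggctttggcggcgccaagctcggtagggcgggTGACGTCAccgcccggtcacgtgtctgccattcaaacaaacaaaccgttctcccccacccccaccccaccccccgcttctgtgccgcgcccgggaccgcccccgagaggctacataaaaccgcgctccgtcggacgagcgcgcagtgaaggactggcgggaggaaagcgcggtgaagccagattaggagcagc
Dusp5: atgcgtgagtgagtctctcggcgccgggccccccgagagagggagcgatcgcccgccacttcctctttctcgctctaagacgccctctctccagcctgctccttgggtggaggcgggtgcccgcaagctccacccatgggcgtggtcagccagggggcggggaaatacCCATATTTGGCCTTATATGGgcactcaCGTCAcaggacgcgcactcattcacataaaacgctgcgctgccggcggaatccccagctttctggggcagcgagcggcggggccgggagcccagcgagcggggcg
Dusp6: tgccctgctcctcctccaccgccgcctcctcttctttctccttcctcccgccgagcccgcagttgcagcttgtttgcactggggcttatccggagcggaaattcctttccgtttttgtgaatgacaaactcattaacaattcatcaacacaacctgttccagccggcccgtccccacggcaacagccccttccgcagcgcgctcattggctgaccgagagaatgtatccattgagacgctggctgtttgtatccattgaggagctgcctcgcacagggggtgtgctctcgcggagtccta

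Dusp1 held 1 full CRE, at -143 to -136 from the start, and a further core at -191 to -187. The full CRE was found in 1 of 9 windows of these genes and in 1.79% of 32851 windows of all genes. Dusp5 held a pair of adjoining CArG boxes, at -82 to -73 and -72 to -63, with a CRE core at -55 to -51. The CArG box was found in 1 of 9 windows and in 1.63% of all windows. The CRE core was in 4 of 9 windows (Dusp1, Dusp2, Dusp5 and Spred2) and in 20.8% of all. In Dusp6 none of the letters searched were found in this window, and the AP-1, ETS, EGR, TATA and NF-kB motifs were in 0 of 9 windows, against 7.81%, 8.86%, 0.612%, 13.6% and 4.51% of all windows.

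Dusp2 had 266, 260 and 227 CPM in monotherapy replicates 1, 2 and 3 and 252, 164 and 190 CPM in the combination replicates. Combination replicate 1 lay within the monotherapy range and the other two below it. The log2 difference was -0.31 ± 0.18 (SE; 95% interval -0.71 to 0.08; edgeR adjusted p = 0.769), and -0.0074 with the Dct and Tyrp1 covariate. Dusp10 ranged from 53.7 to 61.2 CPM in monotherapy and from 43.5 to 57.3 CPM in the combination, a log2 difference of -0.18 ± 0.14 (SE; 95% interval -0.50 to 0.13) that turned to 0.025 with that covariate.

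The Sprouty-family genes overlapped between groups throughout. Spred1 and Spred2, which recruit the RAS inhibitor neurofibromin to the membrane, had log2 differences of -0.17 ± 0.15 (95% interval -0.50 to 0.16) and -0.16 ± 0.16 (SE; 95% interval -0.52 to 0.20). Spred1 ran from 13.8 to 17.7 CPM in monotherapy and from 13.5 to 14.4 CPM in the combination, and Spred2 from 35.6 to 45.0 and from 31.1 to 43.1 CPM. Both intervals contain 0 and end above the estimates of -0.59 and -0.64 for Dusp5 and Dusp6; the difference between genes was not tested. Spred2 moved to -0.43 with the Dct and Tyrp1 covariate (edgeR adjusted p = 0.251) and to -0.0254 without combination replicate 1.

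Spry1, which dampens signalling from receptors to RAS, had 2.14, 2.52 and 2.61 CPM in monotherapy replicates 1, 2 and 3 and 3.83, 1.71 and 2.36 CPM in the combination replicates. Spry2 had 1.87, 2.06 and 2.15 CPM in monotherapy and 3.01, 1.64 and 2.33 CPM in the combination. In both genes combination replicate 1 was the highest of the 6 libraries and combination replicate 2 the lowest. Their log2 differences were 0.12 ± 0.32 (95% interval -0.60 to 0.83) and 0.20 ± 0.29 (SE; 95% interval -0.45 to 0.85), and both turned below 0 without combination replicate 1, to -0.23 and -0.0071. With the Dct and Tyrp1 covariate they were 0.64 and 0.55 (edgeR adjusted p = 0.310 and 0.403). These genes rest on 62 to 126 counts per library, and their intervals reach from a fall to a rise.

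**Figure D3:**
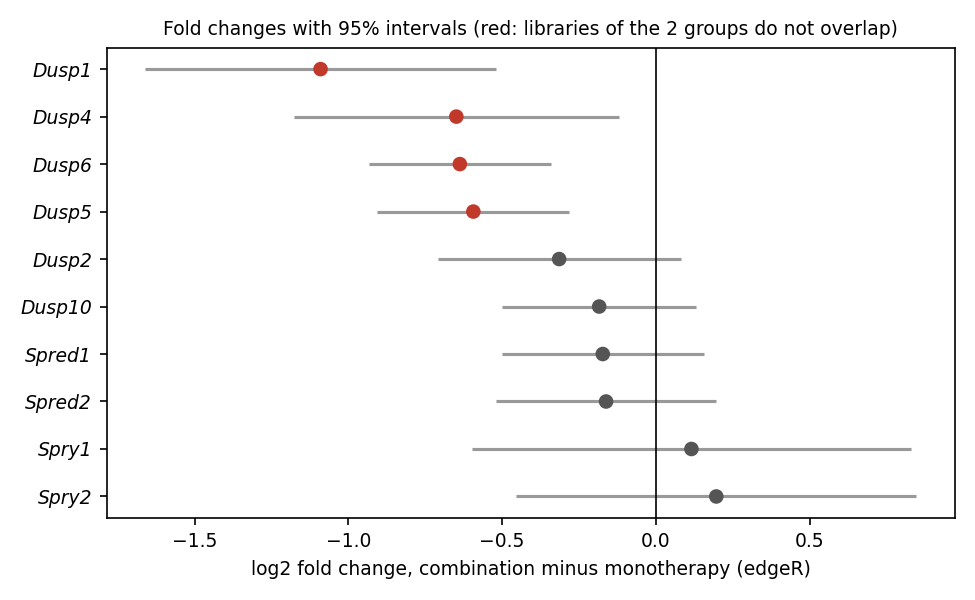
Log2 difference, combination minus monotherapy, from edgeR (horizontal) for each gene (vertical), with 95% intervals; red points mark genes whose libraries do not overlap between groups. Dusp1, Dusp4, Dusp6 and Dusp5 have intervals wholly below 0, and the widest intervals are those of Spry1 and Spry2.

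Dusp1, Dusp4, Dusp5 and Dusp6 ranked the libraries alike. Over the 6 libraries Dusp1 and Dusp6 had the same rank order (Pearson r = 0.967, Spearman rho = 1), and r was 0.938 after the group means were subtracted. For Dusp5 and Dusp6 these were r = 0.983, rho = 0.943 and 0.871 after subtraction. Dusp4 had rho = 1 with Dusp5 and 0.943 with each of Dusp1 and Dusp6. Once group means were subtracted Dusp4 followed them less closely, at 0.566 with Dusp1, 0.534 with Dusp5 and 0.514 with Dusp6. Dusp10, whose groups overlapped, then had 0.691, 0.762 and 0.614 with the same genes. Spry1 and Spry2 had r = 0.953 and rho = 0.829 with each other, and 0.978 after subtraction. Against Dusp6, Spry2 had r = -0.202 and rho = -0.143 but 0.246 after subtraction, and Spry1 had r = 0.074 and rho = 0.371 but 0.441. After subtraction Spry1 had 0.71 with Dusp1 and 0.834 with Dusp2. Spred2 then had -0.542, -0.648, -0.711, -0.485 and -0.979 with Dusp1, Dusp2, Dusp5, Dusp6 and Dusp10, and 0.099 with Dusp4. Spred1 ran from -0.633 with Dusp10 to 0.011 with Dusp4 and Dusp6, and had 0.749 with Spred2. These 6 points share treatment group, depth and scaling, and the values are descriptions of these libraries.

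The genes whose pattern over the 6 libraries was most like that of Dusp6, among 8068 with a mean of at least 10 CPM, were Spin1 (r = 0.992, rho = 0.943), Mthfd1l (r = 0.991, rho = 0.943), Ppp1r15a (r = 0.99, rho = 1), Klf6 (r = 0.989, rho = 0.943) and Sik1 (r = 0.987, rho = 0.943). This r includes the difference between groups, so the choice favours genes that are lower in the combination. Their group differences are therefore not independent of the choice. Of these genes, Sik1 fell, with 70.2 ± 4.79 CPM in monotherapy and 27.8 ± 5.39 CPM in the combination (SD, n = 3 each; edgeR adjusted p = 0.00517). Ppp1r15a fell as well, with 261 ± 34.0 and 142 ± 18.9 CPM (edgeR adjusted p = 0.0324). Sik1 passed in all 16 alternatives, while the call of Ppp1r15a was lost on leaving out any 1 monotherapy library or combination replicate 2 and with either covariate. Klf6 had 160 ± 8.60 and 106 ± 13.5 CPM and missed the threshold (edgeR adjusted p = 0.109). Spin1 and Mthfd1l had small log2 differences of -0.19 ± 0.12 and -0.20 ± 0.11 (SE).

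**Figure D4:**
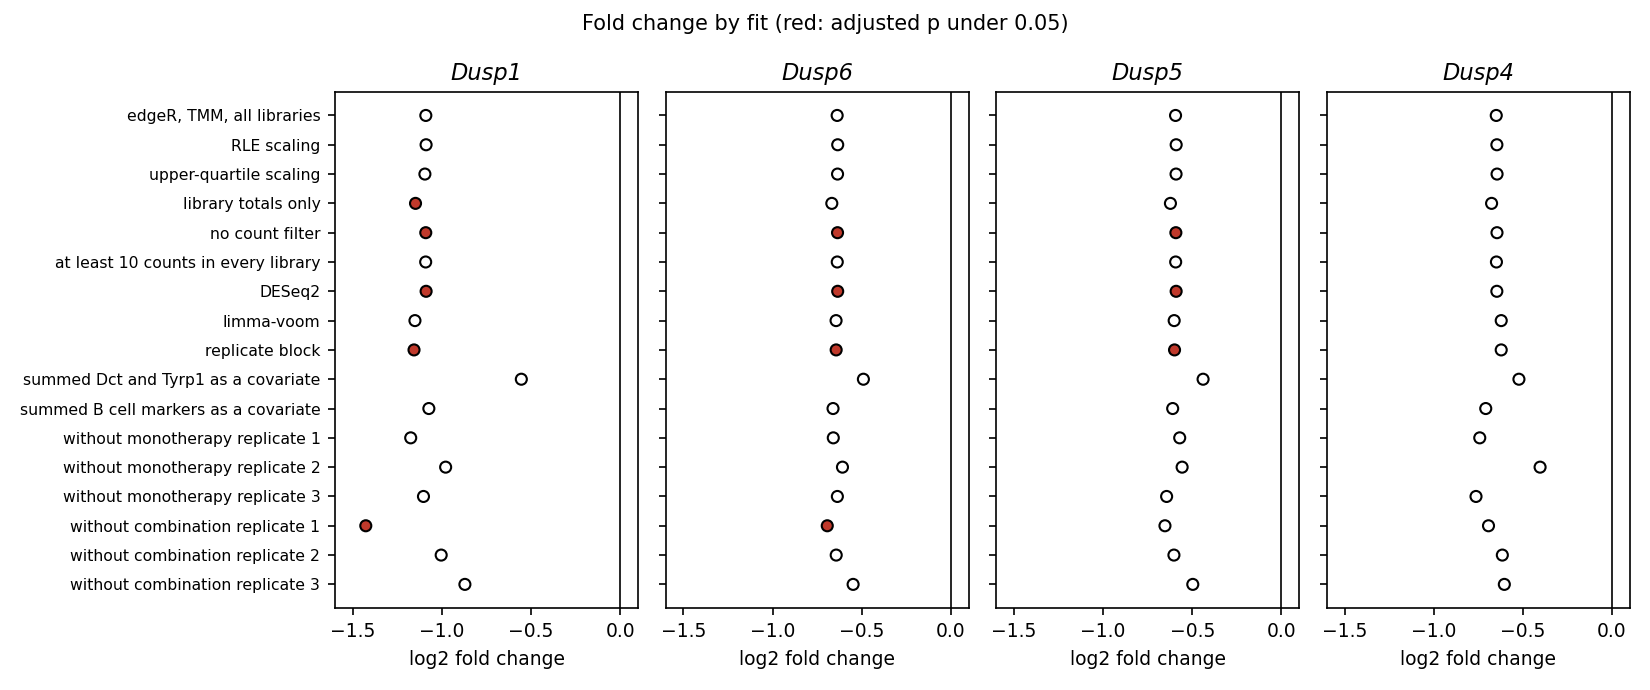
Log2 difference (horizontal) of Dusp1, Dusp6, Dusp5 and Dusp4 under each fit (vertical), with an adjusted p under 0.05 in red. All points lie below 0 for these 4 genes, and red points occur for Dusp1, Dusp6 and Dusp5 under DESeq2, without a count filter and with the replicate block, for Dusp1 also with library totals only, and for Dusp1 and Dusp6 without combination replicate 1.

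Other genes of the same pathways were examined to place these values. Among genes that ERK signalling is known to induce, 2 of 26 tested fell, Egr1 and Jun, 0 rose, and 22 had a log2 difference below 0, with a median of -0.30. DESeq2 called 5 of them lower and limma-voom 1. Egr1, an early-response zinc finger factor, had 84.2 and 49.7 CPM on average (log2 difference -0.76 ± 0.14, SE; edgeR adjusted p = 0.0320), and Jun, a subunit of AP-1, 359 and 183 CPM (-0.97 ± 0.19, SE; edgeR adjusted p = 0.0478). Both calls were lost on leaving out any 1 monotherapy library or combination replicate 2, and with either covariate (Dct and Tyrp1, or B cell markers). That of Egr1 was also lost without combination replicate 1 and with library totals only, and that of Jun in limma-voom. The B cell sum includes Cd22, which itself rose, so that covariate is not free of the group difference. Nr4a1, Fos and Egr3 had log2 differences of -0.56, -0.67 and -0.74 and did not pass. All 5 of these genes lay lower in each combination library than in any monotherapy library. In the list 11 of the 26 did so, against 7.54% of all tested genes. Of all tested genes 0.132% were called lower and 50.1% had a log2 difference below 0. The 5 genes were named for their small p, so their separation is not independent of that choice.

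The kinases and adaptors that carry the signal had 0 calls in the main edgeR fit (TMM scaling, count filter, no covariate, all libraries). Of 26 tested genes of the RAS to ERK cascade 0 passed, with 2 at an unadjusted p under 0.05, 0 lower in DESeq2, 12 below 0 and a median of 0.03, which was -0.04 with the Dct and Tyrp1 covariate. In edgeR without combination replicate 3, 1 gene of this list was called higher. The small GTPase Rras2 and the RAS exchange factor Rasgrp2 had log2 differences above 0, of 0.51 ± 0.17 and 0.37 ± 0.15 (SE). Of 26 genes of the JNK and p38 cascades 0 passed in the main edgeR fit and 1 was lower in DESeq2. In this list 17 of 26 were below 0 and 2 were lower at an unadjusted p under 0.05. The median was -0.06, and -0.17 with the Dct and Tyrp1 covariate. In edgeR 1 gene of this list was also lower with library totals only, without the count filter, with the replicate block and without combination replicate 1. The gene lower in DESeq2 was Gadd45b, an inducible activator of the p38 and JNK branches, which had 43.2 and 23.7 CPM on average (log2 difference -0.87 ± 0.19, SE; edgeR adjusted p = 0.0951, 0.00448 in DESeq2). Map3k14, better known as a kinase of the NF-kB pathway, was the other gene lower at an unadjusted p under 0.05, with a log2 difference of -0.31. Mapk11 had 0.32.

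Of the remaining dual-specificity phosphatase and Sprouty-family genes, 14 of 22 had enough counts to test and 0 passed in edgeR, as in DESeq2 and limma-voom, and 0 reached an unadjusted p of 0.05. Their median was -0.0036 (0.09 with the covariate), and in all 14 the groups overlapped. Dusp28, Dusp7 and Dusp3 had the smallest p, with log2 differences of -0.57 ± 0.26, 0.25 ± 0.17 and 0.69 ± 0.53 (SE).

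Other brakes on RAS and T cell receptor signalling, such as RAS GTPase-activating proteins, ubiquitin ligases and inhibitory adaptors, lay above 0 in 18 of 25 tested genes, with a median of 0.13, which turned to -0.03 with the Dct and Tyrp1 covariate. In the main edgeR fit 0 passed and 4 were higher at an unadjusted p under 0.05, against 698 of all 15142 tested genes. DESeq2 called 1 higher, Errfi1, where it called 284 of all tested genes higher. In edgeR 1 gene of this list was higher without the count filter, with the replicate block and without combination replicate 3. Errfi1, a feedback inhibitor of EGF receptor signalling, had 11.3 and 18.3 CPM on average (log2 difference 0.70 ± 0.14, SE; edgeR adjusted p = 0.0642, 0.00223 in DESeq2). The inhibitory adaptors Lax1 and Dok2 had 0.45 ± 0.14 and 0.41 ± 0.14. Each of these 3 genes was higher in every combination library than in any monotherapy library. In the list 6 of 25 were so, against 1085 of all 15142 tested genes. The 3 genes were named for their small p, so their separation is not independent of that choice.

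**Figure D5:**
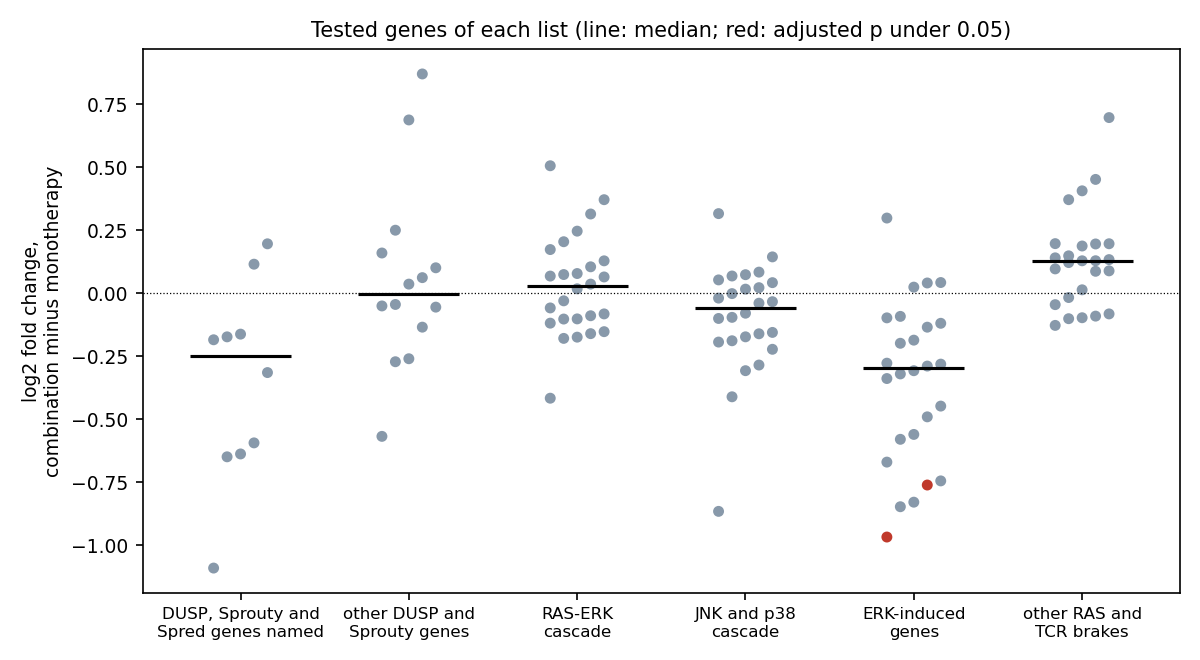
Log2 difference, combination minus monotherapy (vertical), of each tested gene in the 6 lists (horizontal); the line is the list's median and red marks an adjusted p under 0.05 in edgeR. The ERK-induced list has a median of -0.30 with Egr1 and Jun in red, and the 10 phosphatase and Sprouty-family genes have a median of -0.25 with none in red.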

How the data were processed

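Bulk RNA was sequenced from 6 libraries in 2 groups of 3 mice, grouped by the sample titles. Trizol extraction, oligo(dT) enrichment and NEBNext Ultra II libraries are given per the labels' protocols. Tools named in the submitters' processing notes are STAR 2.5.2b, featureCounts of Subread 1.5.2 and DESeq2, while strand use and genome build are not stated there. The deposited counts are whole reads per gene, not normalized. Each library's own file held the same counts as its column in the joint table (6 of 6 libraries), and 6 columns that match no sample were left out. Coordinates of 7 of the 10 genes equal those of GENCODE M21 (GRCm38). Spry1 shares exon sequence with an antisense gene that had at most 2 counts.

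The analysis used edgeR 4.0.16 in R 4.3.3 (filterByExpr, TMM scaling, quasi-likelihood F-test without covariate, Benjamini-Hochberg adjustment over 15142 genes). The labels give no batch. "Rose" and "fell" are used for an adjusted p under 0.05. The SE is the log2 fold change divided by the square root of F, and 95% intervals use the t distribution. CPM and RPKM use TMM-scaled totals and, for RPKM, the exon lengths in the count files. Log2 CPM for correlations used a prior count of 2. DESeq2 1.42.0, limma-voom (limma 3.58.1), other scalings and filters, covariates, a replicate block and left-out libraries were alternatives. The fit was tested on simulated counts. Precision is limited by 3 mice per group and, for Spry1, Spry2 and Dusp4, also by few counts.

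Named genes are the 10 described, list genes that passed, up to 3 more per list with the smallest p, and the 5 most like the gene with the smallest p. One gene that this rule takes is not reported here. The genes and lists were chosen with earlier results of these data known. Protein sequences were not used here.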

Additional observations from a re-analysis of the deposited data

How the results depend on the processing

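Of the 10 genes, 0 were called lower in edgeR with TMM scaling, 1 with library totals only, and 3 each without a count filter, in DESeq2 and with the replicate block; over left-out libraries the number ran from 0 to 2, and it was 0 in the remaining fits, as was the number called higher in all. Among all tested genes, 20 were lower, against 73 in DESeq2, 113 without a filter, 57 with the replicate block, 123 with the Dct and Tyrp1 covariate and 3 with the B cell covariate, and 2 to 49 over left-out libraries. Dusp1, Dusp4, Dusp5 and Dusp6 stayed below 0 in 16 of 16 alternatives, at -1.43 to -0.55, -0.76 to -0.40, -0.65 to -0.44 and -0.69 to -0.49. Dusp10 turned to 0.025 with the Dct and Tyrp1 covariate, and Spry1 and Spry2 turned to -0.23 and -0.0071 without combination replicate 1, over a range of -0.23 to 0.36 and -0.0071 to 0.41 for left-out libraries; the cause was not tested. With the same covariate Spry1, Spry2 and Spred2 moved to 0.64, 0.55 and -0.43. The medians of the RAS to ERK list and of the other brakes turned to -0.04 and -0.03. These Dct and Tyrp1 covariate values rest mainly on combination replicate 1 against monotherapy. The B cell covariate includes Cd22, which itself rose, so it is not free of the group difference. Over left-out libraries Dusp2 ran from -0.48 to -0.17, Dusp10 from -0.28 to -0.098, Spred1 from -0.25 to -0.088 and Spred2 from -0.28 to -0.0254. The median log2 difference over all genes stayed within -0.0195 and 0.0056 under the other scalings. For the replicate block, libraries numbered 1, 2 and 3 deviated with correlations of 0.145, -0.055 and 0.279 between the groups. For numbers 1 and 3 the best match in the other group had the same number, and for number 2 it did not. Whether the numbers mark pairs was not settled by these values. With the first 250 bases only, the CRE core was in 3 windows in place of 4. Depth limits Spry1 and Spry2 most.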
